A study of Mus musculus with 6 samples.

Results

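Complex I, the NADH:ubiquinone oxidoreductase of the mitochondrial inner membrane, was followed through the mRNAs of its nuclear-encoded subunits and of the assembly factors that carry the same name stem. The genes were taken by symbol alone (Nduf followed by a, b, c, s, v, ab or af and a number), which gave 49 of the 16403 genes measured. By known role, 36 of them encode structural subunits, 8 encode assembly factors (Ndufaf1 to Ndufaf8) and 5 are other genes whose symbols match. The RNA came from LSK cells of bone marrow, the lineage-negative, Sca-1+, Kit+ fraction that contains hematopoietic stem cells and early progenitors. All mice were C57BL/6. One group had ligature-induced periodontitis (LIP), in which a thread tied around a molar gathers bacteria and inflames the gum, and the control group (NL) was left without a ligature. Marrow was taken on day 7. Each group had 3 libraries, and each library pooled the sorted cells of 3 mice, so no value belongs to a single animal. The comparison addresses how LIP relates to mRNA levels in progenitors far from the gum.

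Complex I is shaped like an L. Its matrix arm takes electrons from NADH through a flavin and a row of iron-sulfur clusters to ubiquinone, and its membrane arm pumps protons. Core subunits, shared with bacteria, do the chemistry and the pumping, and some of them are encoded by mitochondrial DNA. Accessory subunits surround the core, and assembly factors help to build the enzyme but are absent from the finished complex. Hematopoietic stem cells are known for low mitochondrial respiration at rest, which rises as progenitors divide and differentiate.

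Complex I mRNAs were lower in LIP than in NL. Of the 46 members with enough counts to be tested, 33 fell, 0 rose and 13 were not called, beside 15.8% of all 12564 tested genes that fell and 14.1% that rose. A call means an adjusted p below 0.05 in edgeR's quasi-likelihood test, with Benjamini-Hochberg adjustment over all tested genes. At an unadjusted p below 0.05 the number of members higher was also 0, and DESeq2, limma-voom and limma on log2(TPM + 1) called 0 higher as well. All 46 log2 fold changes were below 0 (45 with total counts alone, 36 with the length offset described below and 35 on the TPM scale), with a median of -0.22 and a range from -0.59 to -0.03, while the median over all tested genes was -0.00072. In 34 of the 46 members every LIP library lay below every NL library, as it did in 21% of all tested genes, and in 0 members it was the reverse, against 19.9% of all tested genes. The decreases were small: Ndufc1, the structural subunit with the lowest fold change, fell by 24.5%.

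**Figure D1:**
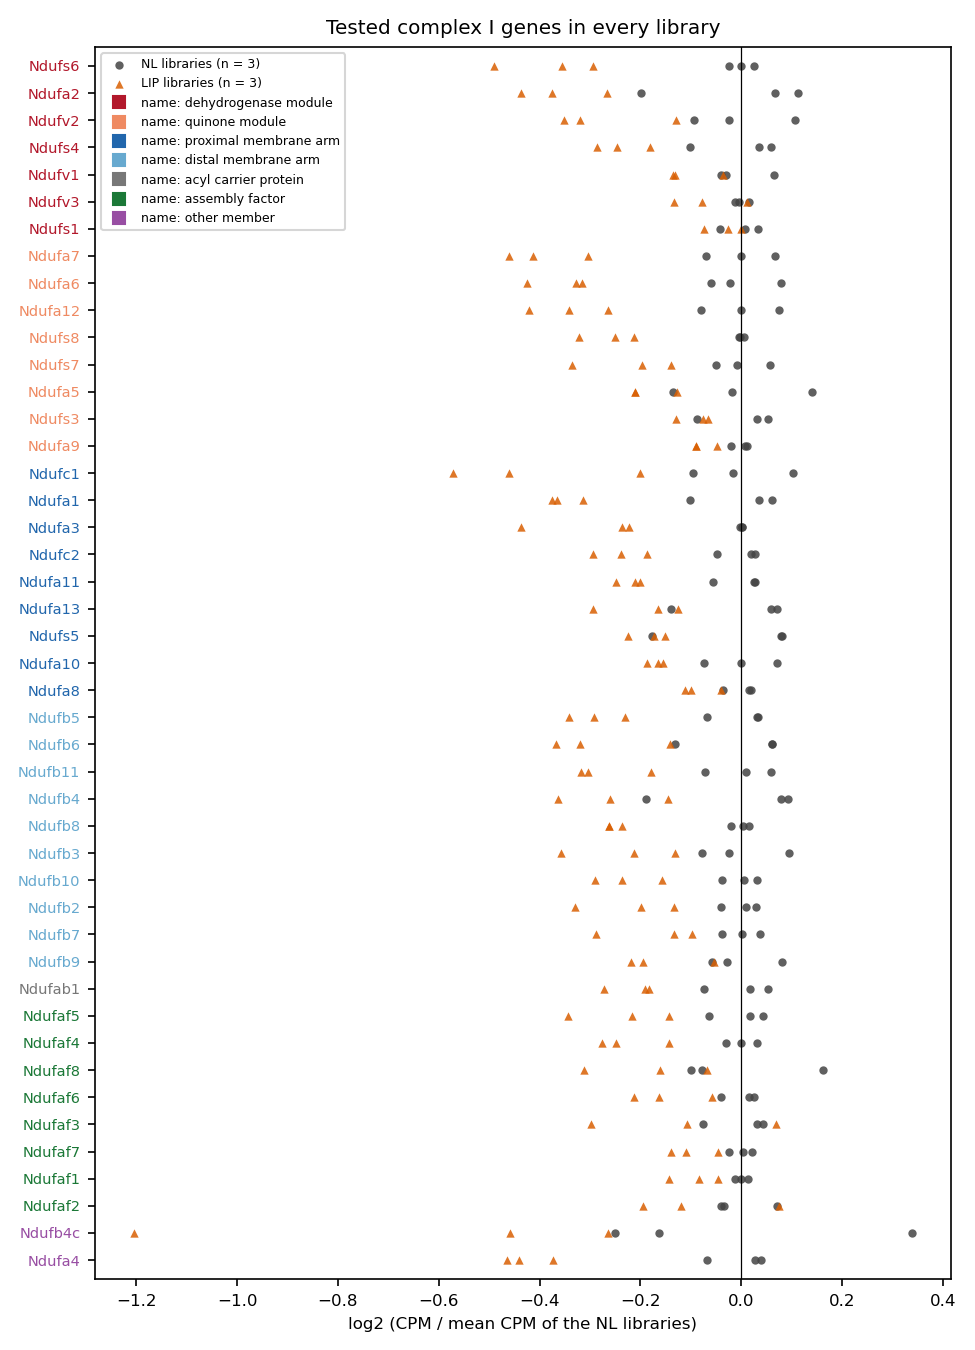
Each row is 1 of 45 tested members, coloured by role, and each point is 1 library, as the log2 of its CPM over the mean CPM of the 3 NL libraries. The LIP triangles lie left of the NL circles in 33 rows, and in rows such as Ndufs1, Ndufv3 and Ndufaf2 the 2 groups overlap.

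Subunits and assembly factors differed in level and in the number of calls. Among structural subunits 30 of 36 fell, with a median log2 fold change of -0.23, and among assembly factors 2 of 8 fell, with a median of -0.12. Per transcript length, in the authors' TPM, the median NL level was 171 for the subunits and 23.9 for the assembly factors. Standard errors of the log2 fold change ranged for the assembly factors from 0.0516 to 0.0935 and for the subunits named here from 0.0372 to 0.0767. The difference between the medians was -0.11 on the log2 scale, and no test was run on it because the genes were grouped with results known. Set against each gene's own NL mean, the subunit median was -0.19, -0.28 and -0.21 in LIP libraries 1, 2 and 3 and between -0.030 and 0.030 in NL. The assembly factor median was -0.12, -0.18 and -0.14 in the same LIP libraries and between -0.021 and 0.0079 in NL. Each group of genes thus kept the LIP libraries apart from the NL libraries. LIP-2 was the lowest library in both.

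Library totals lay between 17780810 and 18841090 counts, at which 3 counts equal 0.157 to 0.171 CPM (counts scaled to the library total with TMM factors), a floor that covers counting error only. Complex I members took 0.289% to 0.298% of the counts in NL and 0.256% to 0.265% in LIP. The LSK markers Kit, Ly6a, Cd34, Flt3, Mecom, Hlf, Procr and Slamf1 summed to between 2431 and 2454 CPM in NL and to between 2495 and 2538 in LIP, with 1 of 8 called, higher. Markers of mature neutrophils, which the sort was meant to remove, were called higher in 8 of 11 tested, and their 12 genes summed to 226.5 to 242.3 CPM in NL and 319.8 to 344.6 in LIP, with Ly6g at 0 to 3 counts in every library. B-lineage markers summed to 70.3 to 72.5 CPM in NL and 86.5 to 90.3 in LIP (5 of 8 higher), and T and NK markers to 142.7 to 151.6 and 160.4 to 175.2 (4 of 7 higher). Stromal and endothelial markers stood at 92.5 to 96.1 and 104.6 to 106.5 (1 of 3 tested higher and 1 lower), and erythroid markers at 611.7 to 622.6 and 554.8 to 586.6 (3 of 9 higher and 4 lower). All 7 heat shock and handling genes fell, from a sum of 759.6 to 760.7 CPM in NL to 397.0 to 405.3 in LIP. Their log2 fold changes were uneven, with Hspa1a at -5.24, Hspa1b at -4.99 and the others from -0.76 to -0.31. No marker was at 0 in all libraries. The part of these genes in the complex I result was not tested, and in bulk RNA fewer cells of a type and less RNA per cell cannot be told apart.

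Short transcripts were lower in LIP as a class, and most complex I subunits are short. Effective length, the stretch of transcript on which reads can start, was computed from the authors' counts and FPKM. Its median was 590.5 bases for structural subunits, 987.1 for assembly factors and 2751 for all tested genes. Of all tested genes under 500 bases, 61.3% fell, with a median log2 fold change of -0.27 over 194 genes. From 500 to 1000 bases 41.4% fell (median -0.14, 856 genes), from 1000 to 2000 bases 19.8% (median -0.039, 2952 genes), and at 2000 bases or more 10.8% (median 0.025, 8562 genes). With ribosomal protein and respiratory chain genes left out, the shares that fell were 47.4%, 37.1%, 19.3% and 10.8% in the same order. The shift showed in every LIP library, since genes under 500 bases had medians of -0.23, -0.33 and -0.21 in LIP libraries 1, 2 and 3, against -0.020, 0.029 and 0.000065 in NL.

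Among members, too, the shares that fell went down from the shortest class to that of 1000 to 2000 bases, but not beyond it. Under 500 bases 13 of 15 tested members fell with a median of -0.34, and from 500 to 1000 bases 14 of 20 with a median of -0.23. From 1000 to 2000 bases 4 of 8 fell with a median of -0.098, and of 3 members of 2000 bases or more 2 fell, Ndufa11 and Ndufaf4, with a median of -0.22. Across the 46 members the correlation of log2 fold change with log2 effective length was 0.52 (Pearson) and 0.54 (Spearman). Over all 12564 tested genes it was 0.23 and 0.28. These are descriptions across genes measured in the same 6 libraries, and genes are not independent replicates. The groups can also be set side by side within length classes. Under 500 bases 12 of 12 subunits fell (median -0.32), and the 1 assembly factor, Ndufaf8, was not called (-0.18). From 500 to 1000 bases 13 of 16 subunits fell (median -0.23) and 1 of 4 assembly factors (median -0.12). From 1000 to 2000 bases 4 of 6 subunits (median -0.13) and 0 of 2 assembly factors fell (median -0.094), the latter being Ndufaf1 and Ndufaf7, with unadjusted p above 0.05 as well. At 2000 bases or more 1 of 2 subunits fell (median -0.13) and the 1 assembly factor, Ndufaf4, did (-0.22). Differences between these small classes were not tested.

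**Figure D2:**
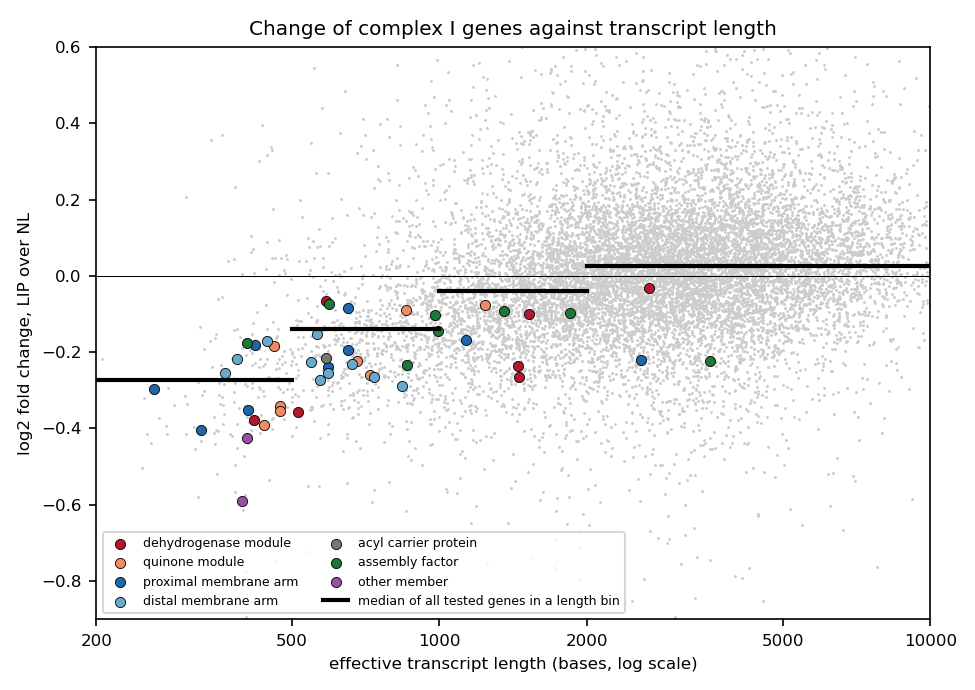
Log2 fold change (LIP over NL) against effective transcript length in bases on a log scale, with 45 members as coloured points, other tested genes as grey points and black bars for the median of all tested genes in each length class. Grey points beyond the axes are not drawn. The bars rise from -0.27 under 500 bases to 0.025 at 2000 bases or more, and Ndufa11 and Ndufaf4 lie near -0.22 at the long end.

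A length offset was then added to the test, a smooth trend per library that sets genes of equal length outside the ribosomal and respiratory lists to no average difference. At 400 bases the trend that was removed was -0.23 on the log2 scale, at 600 bases -0.17, at 1000 bases -0.096 and at 3000 bases 0.0093. With the offset 13 of 46 members fell, beside 13.7% of all tested genes, and 0 rose. Ndufv3 was the 1 member higher at an unadjusted p below 0.05, with an adjusted p of 0.0556. The members' median went to -0.069, and 36 of 46 log2 fold changes were below 0. Subunits and assembly factors then had medians of -0.069 and -0.042. The 13 were Ndufs6, Ndufa2, Ndufv2 and Ndufs4 of the dehydrogenase module, Ndufa7, Ndufa6, Ndufa12 and Ndufs8 of the quinone module, Ndufa11, Ndufb5 and Ndufb11 of the membrane arm, the assembly factor Ndufaf4, and Ndufa4. In the matrix arm 8 of 16 subunits fell with the offset (median -0.094), and in the membrane arm 3 of 19 (median -0.066). Without the offset these counts were 11 of 16 (median -0.23) and 18 of 19 (median -0.23). The difference between the arms was not tested. Adding a GC trend gave 15 members lower beside 12.4% of all tested genes, total counts without scaling factors gave 29 beside 10.4%, and limma on log2(TPM + 1) gave 14 beside 4.31%.

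**Figure D3:**
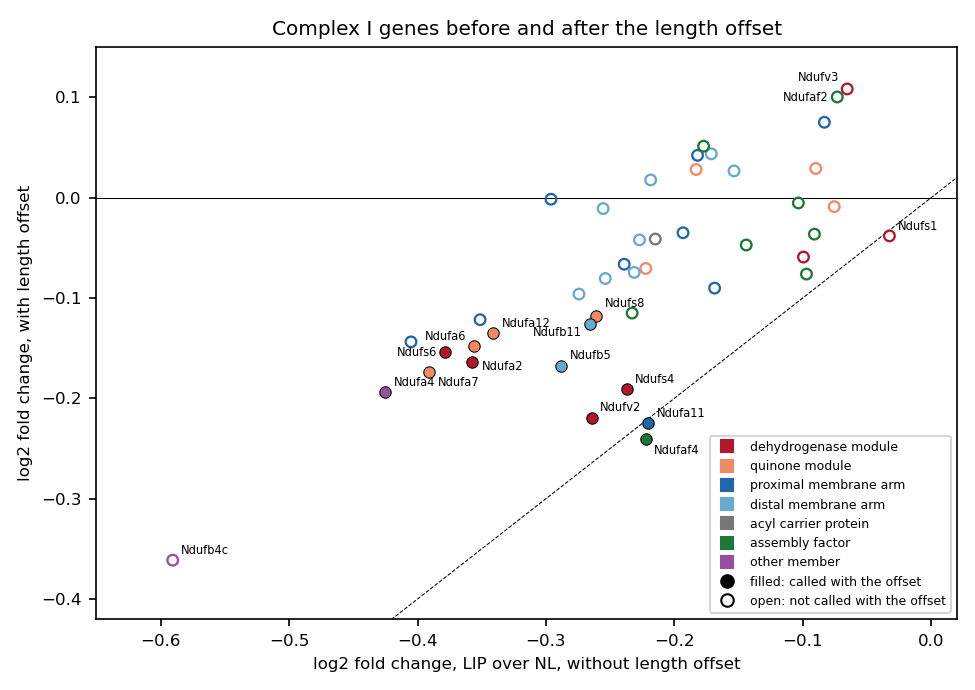
Log2 fold change of 45 tested members without the length offset (horizontal axis) and with it (vertical axis); the dashed line marks equal values, and filled points are the 13 members called with the offset. Most members lie above the dashed line, while Ndufa11, Ndufaf4 and Ndufs1 lie on or just below it.

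The start regions of some members hold short letter patterns. Whether these bear on the decrease was not tested. RefSeq promoter windows on GRCm38.p6, from 250 bases before to 50 after a start site, were matched for 41 members. The letters AAGATGGC, a core of the motif bound by YY1, occurred on either strand in 8 of the 41 (19.5%), in 5.24% of tested genes with a window and in 3.19% of all genes with one. All 8 matches were on the gene's own strand and began 11 to 39 bases after the start. The capitals mark the matched letters, and the flanks are up to 10 bases, cut where the window ends.
Ndufs6 (chr13:73328433-73328459): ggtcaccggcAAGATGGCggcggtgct
Ndufs4 (chr13:114388045-114388069): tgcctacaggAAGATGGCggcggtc
Ndufs7 (chr10:80249463-80249490): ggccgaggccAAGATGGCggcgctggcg
Ndufa9 (chr6:126849098-126849125): attgtgggagAAGATGGCggccgccgtc
Ndufc1 (chr3:51408916-51408943): cctgcggaacAAGATGGCgccgtccgta
Ndufa3 (chr7:3617385-3617412): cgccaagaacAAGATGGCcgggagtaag
Ndufb8 (chr19:44555393-44555414): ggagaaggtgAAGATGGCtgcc
Ndufaf8 (chr11:120098934-120098961): ggcagggcccAAGATGGCggcgccctcg

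Ndufs7, Ndufa3 and Ndufaf8 are on the plus strand and the other 5 on the minus strand, and each sequence is written 5′ to 3′ along its gene. In this set 6 fell and 2, Ndufa9 and Ndufaf8, were not called. Of all 46 tested members 33 (71.7%) fell, the share to set beside this count and those of the patterns below. The pattern contains ATG, and whether that ATG is the start codon was not examined. GCGCATGC, a core of the NRF1 motif, occurred in 5 of 41 members (12.2%) against 5.98% of tested genes, and 4 of the 5 fell. Those letters partly match their own reverse complement, so 1 place can match on both strands. Ndufaf4 also held a match at another place, which began 2 bases after the start (chr4:24898074-24898101). Only 1 match per gene is shown.
Ndufa6 (chr15:82354357-82354384): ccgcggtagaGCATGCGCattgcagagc
Ndufa11 (chr17:56717692-56717719): cctgcactgcGCGCATGCgcgcacgcct
Ndufaf4 (chr4:24897960-24897987): ccagatgtctGCGCATGCgcctgtgcgg
Ndufaf5 (chr2:140170652-140170679): agtcccgttgGCGCATGCgcctaataga
Ndufa8 (chr2:36049329-36049356): cgctggagacGCATGCGCagatggtacc

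Ndufa6 and Ndufa8 are on the minus strand and carry the match on the strand opposite to the gene. CCGGAAG, a core of the ETS motif that GABPA binds, occurred in 6 of 41 members (14.6%) and in 20.1% of tested genes, and 3 of these 6 fell. A match describes letters in this window and not a bound site.

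The dehydrogenase module oxidises NADH, and 5 of its 7 members fell (median -0.24). CPM values below are in the order of libraries 1, 2 and 3. Ndufs6, a zinc-binding accessory subunit (chromosome 13, 73319876 to 73328482), stood at 45.4, 43.9 and 44.6 CPM in NL and at 34.8, 31.7 and 36.4 in LIP. The LIP values lay below all NL values, and the spread within NL was small. The mean went from 44.6 ± 0.755 to 34.3 ± 2.36 CPM over n = 3 libraries each (mean ± SD). This corresponds to -0.38 ± 0.05 (SE) as log2 fold change, with an adjusted p of 9.26e-08 by edgeR. Ndufa2, an accessory subunit with a thioredoxin-like fold, had 42.5, 51.0 and 52.7 CPM in NL and 37.6, 36.0 and 40.5 in LIP. NL-1 was its lowest NL library and lay near the LIP values, and the log2 fold change was -0.36 ± 0.07 with an adjusted p of 3.22e-04 by edgeR.

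Ndufv2, which holds an iron-sulfur cluster beside the flavin subunit, had 101.5, 106.5 and 117 CPM in NL and 99.0, 86.7 and 84.9 in LIP. LIP-1 came close to the lowest NL library, and the log2 fold change was -0.26 ± 0.06 with an adjusted p of 0.00574 by edgeR. That call was lost in 4 of 21 alternative fits, among them the length and GC offset (-0.15, adjusted p 0.088) and limma on log2(TPM + 1) (-0.13, adjusted p 0.0868). Its partner Ndufv1, which binds NADH and the flavin, had 108, 116 and 109 CPM in NL and 101.4, 101.2 and 108 in LIP. The groups overlapped, since LIP-3 lay above NL-1. Ndufv1 fell by 0.10 on the log2 scale with an adjusted p of 0.0459 by edgeR, and that call was lost in 15 of 21 alternative fits. Ndufs1, the large subunit that carries several iron-sulfur clusters, had 92.5, 97.5 and 95.8 CPM in NL and 95.3, 93.6 and 90.6 in LIP, and was not called (log2 fold change -0.03, adjusted p 0.572). Ndufv3 was also not called, at -0.07 with an adjusted p of 0.3, and Ndufs4, an accessory subunit that is phosphorylated, fell by 0.24.

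The quinone module passes electrons to ubiquinone, and 6 of its 9 members fell (median -0.22). Ndufa7, an accessory subunit (chromosome 17, 33824572 to 33838316), had 51.2, 56.4 and 53.7 CPM in NL and 40.4, 39.1 and 43.6 in LIP. All LIP values lay below all NL values, and the mean went from 53.8 ± 2.56 to 41.0 ± 2.33 CPM (SD, n = 3 per group). Its log2 fold change was -0.39 ± 0.05 with an adjusted p of 9.38e-09 by edgeR. Ndufa6, which docks an acyl carrier protein onto the matrix arm (chromosome 15, 82350139 to 82354291), had 63.4, 65.1 and 69.8 CPM in NL and 52.7, 53.1 and 49.2 in LIP. The groups were apart, and the gene fell by 0.36 with an adjusted p of 1.33e-08. Both kept their call with the length offset, at -0.17 and -0.15.

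Core subunits of the quinone module that fell were Ndufs8 and Ndufs7. Ndufs8, a ferredoxin-like subunit with iron-sulfur clusters, had 86.3, 85.8 and 85.8 CPM in NL and 72.3, 68.8 and 74.2 in LIP. The NL values were nearly equal and well above the LIP values, and Ndufs8 fell by 0.26 with an adjusted p of 1.05e-06. Ndufs7, which holds the last cluster before ubiquinone, had 89.0, 86.4 and 93.2 CPM in NL and 81.3, 71.0 and 78.1 in LIP. It fell by 0.22 with an adjusted p of 6.67e-05, but stood at -0.07 with the length offset and was not called there (adjusted p 0.197). Ndufs3, a core subunit without a cluster, had 76.1, 82.6 and 83.8 CPM in NL and 73.9, 76.7 and 77.2 in LIP. NL-1 lay inside the LIP range, and Ndufs3 was not called (log2 fold change -0.09, adjusted p 0.101). Of the accessory members Ndufa12 and Ndufa5 fell, by 0.34 and 0.18, and Ndufa9 was not called, at -0.08.

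Over all 7 nuclear core subunits 4 fell, Ndufv1, Ndufv2, Ndufs7 and Ndufs8, with a median of -0.10 and a median length of 1454 bases. Of the 29 accessory subunits 26 fell, with a median of -0.24 and a median length of 563.8 bases. The core median was -0.13, -0.13 and -0.072 in LIP libraries 1, 2 and 3, and the accessory median -0.19, -0.29 and -0.24. With the length offset 2 of 7 core subunits and 9 of 29 accessory subunits fell, with medians of -0.059 and -0.075. The 3 accessory subunits not called without the offset were Ndufv3, Ndufa9 and Ndufa8.

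**Figure D4:**
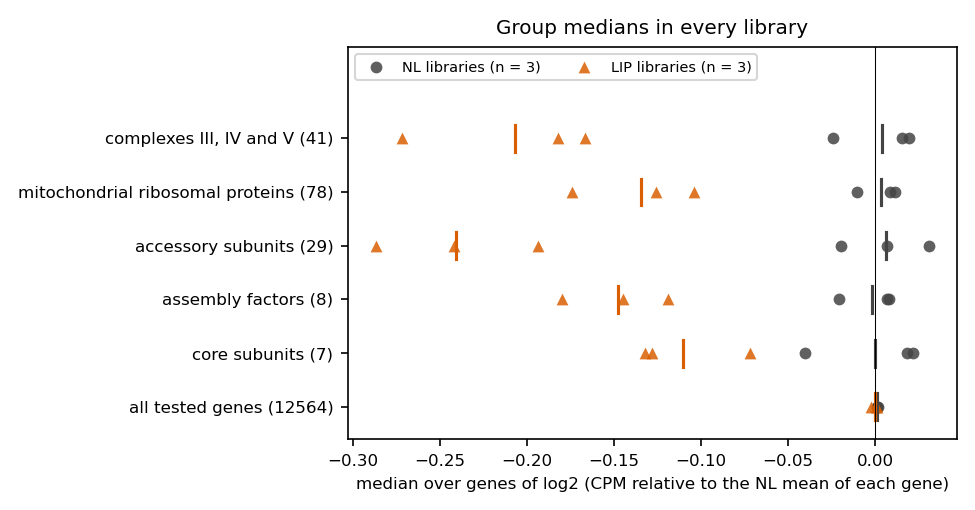
Median over the genes of each list of log2 CPM relative to the NL mean, per library, with the number of genes in brackets; bars mark the mean of the 3 libraries of a group. The accessory subunits lie lowest in LIP, between -0.29 and -0.19, the core subunits lie between -0.13 and -0.072, and the median of all tested genes lies between -0.0025 and 0.0014.

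The membrane arm carries the proton pumps, and its nuclear-encoded members are accessory subunits, most of them small proteins with a membrane helix. In the proximal part 8 of 9 fell (median -0.22). Ndufc1, a very small subunit (chromosome 3, 51405479 to 51408955), had 24.03, 22.1 and 20.9 CPM in NL and 19.5, 15.1 and 16.3 in LIP. The groups did not overlap, although LIP-1 came near NL-3, and the gene fell by 0.41 with an adjusted p of 4.66e-05. Ndufa1, an X-linked subunit with a membrane anchor (chromosome X, 37187588 to 37191238), had 28.3, 31.7 and 31.1 CPM in NL and 24.4, 23.6 and 23.4 in LIP. It fell by 0.35 with an adjusted p of 6.17e-06. Neither gene was called with the length offset, where they stood at -0.14 (adjusted p 0.152) and -0.12 (adjusted p 0.127).

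Ndufa8, a subunit on the intermembrane-space side, was the 1 member of the proximal part that was not called. It had 59.9, 57.8 and 60.1 CPM in NL and 55.3, 54.9 and 57.6 in LIP, with a log2 fold change of -0.08 and an adjusted p of 0.164. Ndufa11 (chromosome 17, 56717762 to 56724248), which spans the membrane several times, has a long effective length of 2576.5 bases in these data. Its values were 54.0, 51.0 and 54.0 CPM in NL and 46.1, 44.6 and 45.8 in LIP. The groups were far apart, and Ndufa11 fell by 0.22 without and by 0.22 with the length offset (adjusted p 2.56e-04 and 2.43e-04 by edgeR). With the length and GC offset it stood at -0.28 (adjusted p 2.31e-06 by edgeR). On log2(TPM + 1) it stood at -0.09 and was not called (adjusted p 0.127 by limma). The other proximal subunits, Ndufa3, Ndufc2, Ndufa13, Ndufs5 and Ndufa10, had log2 fold changes from -0.30 to -0.17.

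In the distal part all 10 subunits tested fell (median -0.24), and Ndufb1 was not analysed here. Ndufb5 (chromosome 3, 32737057 to 32751559) had 88.1, 94.5 and 94.5 CPM in NL and 78.7, 72.9 and 75.5 in LIP. The groups were apart, and it fell by 0.29 with an adjusted p of 1.27e-07, or by 0.17 with the length offset (adjusted p 9.37e-04). Ndufb6 had 34.7, 34.7 and 30.4 CPM in NL and 30.2, 26.7 and 25.8 in LIP. LIP-1 nearly reached NL-3, and Ndufb6 fell by 0.27 with an adjusted p of 5.07e-04. Ndufb9, which like Ndufa6 docks an acyl carrier protein, had 82.9, 91.3 and 84.6 CPM in NL and 75.3, 74.1 and 83.1 in LIP. Its groups overlapped, and it had the smallest decrease of the part, 0.15 on the log2 scale with an adjusted p of 0.00558. With the length offset 2 of the 10 fell, Ndufb5 and Ndufb11.

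Ndufab1 is the mitochondrial acyl carrier protein, which also serves fatty acid and iron-sulfur cluster synthesis and sits in both arms of the complex. It had 77.2, 70.6 and 75.3 CPM in NL and 65.1, 61.6 and 65.5 in LIP. The groups were apart, and it fell by 0.21 with an adjusted p of 1.03e-04. With the length offset it stood at -0.04 and was not called (adjusted p 0.512).

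The assembly factors were measured at 9.15 to 46.0 CPM. Ndufaf4, which acts with Ndufaf3 on the early quinone module (chromosome 4, 24898083 to 24905001), had 46.0, 45.0 and 44.1 CPM in NL and 40.8, 37.9 and 37.2 in LIP. All LIP values lay below all NL values, and it fell by 0.22 ± 0.05 (SE) with an adjusted p of 6.01e-04 by edgeR. It is also the longest member, with 3549.6 bases, and with the length offset it fell by 0.24 (adjusted p 2.77e-04). With the length and GC offset Ndufaf4 stood at -0.13 (adjusted p 0.0354 by edgeR). On log2(TPM + 1) it stood at -0.09 and was not called (adjusted p 0.17 by limma). Its partner Ndufaf3 had 13.4, 12.4 and 13.3 CPM in NL and 12.1, 10.6 and 13.7 in LIP. The highest value of Ndufaf3 was a LIP library, and it was not called (log2 fold change -0.10, adjusted p 0.414).

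Ndufaf5, which hydroxylates Ndufs7, had 11.1, 11.8 and 12.0 CPM in NL and 10.5, 9.99 and 9.15 in LIP. The groups did not overlap, and the fall of 0.23 ± 0.09 (SE) was called with an adjusted p of 0.0475 by edgeR, a call lost in 15 of 21 alternative fits. Ndufaf8, which stabilises Ndufaf5, had 16.3, 13.6 and 13.8 CPM in NL and 13.9, 11.8 and 13.1 in LIP. Its groups overlapped, and it was not called (-0.18, adjusted p 0.115). Ndufaf7, a protein methyltransferase, had 27.8, 28.3 and 28.7 CPM in NL and 25.7, 26.2 and 27.4 in LIP. The groups were apart, but the difference of -0.10 was not called (adjusted p 0.223).

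Ndufaf1, a factor of the membrane arm intermediates, had 21.9, 22.1 and 21.7 CPM in NL and 21.2, 20.7 and 19.8 in LIP. It was not called (-0.09, adjusted p 0.319), although no LIP value reached an NL value. Ndufaf6 had 10.8, 10.8 and 10.4 CPM in NL and 10.2, 9.52 and 9.2 in LIP, and was not called (-0.14, adjusted p 0.257). Ndufaf2, a relative of Ndufa12 that acts late in assembly, had 13.0, 14.0 and 12.9 CPM in NL and 11.6, 14.0 and 12.2 in LIP. The groups overlapped, and it was not called (-0.07, adjusted p 0.569). The sum of TPM over the 8 assembly factors lay between 224.0 and 238.7 in NL and between 224.4 and 229.4 in LIP, so the groups overlapped. For the 36 subunits the sum was 6310 to 6349 TPM in NL and 5810.5 to 5971.5 in LIP, and the groups did not overlap. TPM is a share of all transcripts per length, and on that scale the median of all tested genes was 0.11 above 0 (log2).

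Among the remaining members Ndufa4 stood out in level and in change. Named as a complex I subunit, it is now counted as a subunit of complex IV. It had 190.2, 203 and 205 CPM in NL and 144.5, 147 and 154 in LIP, far apart. In percent it fell by 25.5%, and on the log2 scale it fell by 0.42 ± 0.04 (SE), with an adjusted p of 1.17e-14 by edgeR, and by 0.19 with the length offset (adjusted p 2.94e-05). With the length and GC offset it stood at -0.0987 (adjusted p 0.0274 by edgeR), where the median of the structural subunits was -0.0871. Its TPM went from 805 ± 19.4 to 658 ± 20.3 (SD, n = 3 per group). Ndufa4l2, its relative known as a hypoxia target, had 0 counts in every NL library and 0, 1 and 1 in LIP, and was not tested. The other genes not tested were Ndufa11b, with 1 count in all, and Ndufb4b, with 0 to 9 counts.

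Ndufb4, Ndufb4b and Ndufb4c are near copies whose deposited counts were not whole. How reads were divided between them is not given in the sources, so each value is uncertain. Ndufb4c had 13.0, 13.8 and 19.5 CPM in NL and 11.2, 6.69 and 12.9 in LIP, and with a standard error of 0.316 its log2 fold change of -0.59 was not called (adjusted p 0.26). Ndufb4 fell by 0.26 with overlapping groups. Summed over the 3 genes, NL had 65.2 ± 1.89 and LIP 52.1 ± 5.54 CPM (mean ± SD of 3 libraries), or -0.33 as a log2 ratio. Ndufa13, Ndufaf6 and Ndufaf7 also lacked whole counts. Of the 33 members that fell, 9 were called in each of the 21 alternative fits: Ndufs6, Ndufa2, Ndufa7, Ndufa6, Ndufa12, Ndufs8, Ndufb5, Ndufb11 and Ndufa4. In 6 of the 33 the groups overlapped, Ndufv1, Ndufa5, Ndufa13, Ndufs5, Ndufb4 and Ndufb9.

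Other factors that build complex I were called lower about as often as all tested genes. Of 15 such genes outside the name rule 2 fell (13.3%, beside 15.8% of all tested genes) and 0 rose by edgeR. At an unadjusted p below 0.05 these counts were 4 and 2. The edgeR median of the 15 was -0.04, and their median length was 1549 bases. DESeq2 also gave 2 lower and 0 higher, beside 1317 and 1167 of all 12564 tested genes. Total counts alone gave 2 and 3 (beside 1301 and 2756), and the length and GC offset 0 and 2 (beside 1552 and 1525). With limma on log2(TPM + 1) the counts were 1 and 6, beside 542 and 4657. The 2 called lower by edgeR were Tmem126b and Tmem126a, related proteins that both help to assemble the membrane arm. Tmem126b went from 9.23 ± 1.49 to 6.83 ± 0.583 CPM (SD, n = 3 per group; log2 fold change -0.44, adjusted p 0.00183 by edgeR) and Tmem126a from 18.2 ± 0.734 to 14.8 ± 2.04 (-0.31, adjusted p 0.00276 by edgeR). With the length offset Tmem126b stood at -0.30 (adjusted p 0.0371), while Tmem126a stood at -0.15 and lost its call (adjusted p 0.141). Under that offset 1 of the 15 fell and 1 rose, beside 13.7% and 13% of all tested genes. The gene that rose was Chchd4, at 0.14 (adjusted p 0.0449 by edgeR), against 0.06 without the offset (adjusted p 0.407). Ecsit and Acad9, which work with Ndufaf1, stood at -0.05 and 0.10 and were not called (adjusted p 0.5 and 0.115). Tmem70 and Dmac1 were not called either, at -0.10 and -0.13.

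By edgeR with TMM factors, regulators of mitochondrial genes had shares of calls no higher than those of all tested genes. Of 13 listed, 2 fell (15.4%, beside 15.8%) and 1 rose (7.69%, beside 14.1%). Total counts alone gave 2 lower and 2 higher, beside 1301 (10.4%) lower and 2756 higher of all 12564 tested genes. The length offset gave 3 lower and 1 higher, beside 13.7% and 13% of all tested genes. On log2(TPM + 1) the counts were 0 lower and 4 higher, beside 542 (4.31%) lower and 4657 higher of all 12564 tested genes. Yy1, the factor whose motif is printed above, went from 140.5 ± 4.35 to 125 ± 2.21 CPM (SD, n = 3 per group) and fell by 0.16 with an adjusted p of 3.11e-04 by edgeR. Tfam, which packs and transcribes mitochondrial DNA, went from 66.0 ± 2.55 to 58.9 ± 1.92 CPM and fell by 0.16 (adjusted p 0.00354). Pprc1, a coactivator related to PGC-1, went from 92.1 ± 3.45 to 113 ± 3.69 CPM and rose by 0.29 (adjusted p 2.21e-08). Nrf1 and Gabpa were not called, at 0.01 and -0.08 (adjusted p 0.86 and 0.116). These transcripts are over 2000 bases long, and the values of Yy1, Tfam and Pprc1 with the length offset were -0.16, -0.16 and 0.26. Gabpa was called lower with that offset (-0.11, adjusted p 0.0212).

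Complexes III, IV and V, the later enzymes of the chain, were also lower in LIP. Of 41 tested genes 33 fell and 0 rose by edgeR, also 0 at an unadjusted p below 0.05 and by DESeq2, with a median of -0.19. With the length offset 17 fell and 1 rose (median -0.070). In complex II, succinate dehydrogenase, 5 of 8 genes fell and 0 rose by edgeR (1 higher at an unadjusted p below 0.05). DESeq2 gave 2 lower and 0 higher, total counts alone 3 and 1, the length offset 3 and 1, and log2(TPM + 1) 1 and 2. In the same order, all 12564 tested genes gave 1317 and 1167, 1301 and 2756, 1725 and 1637, and 542 and 4657. By edgeR Sdhb stood at -0.24 (adjusted p 1.23e-06) and Sdha at 0.08 (adjusted p 0.0719). The complex II gene called higher with the length offset was Sdhaf1 (0.19, adjusted p 0.0337 by edgeR). Mitochondrial ribosomal protein genes had 40 of 78 lower and 1 higher by edgeR (median -0.15). On log2(TPM + 1), where the median of all genes also moves, 12 were lower and 10 higher. On that scale 542 of all 12564 tested genes were lower and 4657 higher. Cytosolic ribosomal protein genes had 79 of 83 lower and 0 higher by edgeR and by DESeq2, also 0 higher at an unadjusted p below 0.05 (median -0.31). With the length offset these became 21 lower and 6 higher (median -0.042), and 56 lower and 0 higher (median -0.13). No test compared these lists with complex I. The complex I subunits encoded by mitochondrial DNA were not analysed here.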

How the data were processed

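Bulk polyA RNA-seq of 6 libraries (3 NL, 3 LIP) was used, 100 bp paired-end reads on a BGISEQ instrument with a mean of 45.0 M reads per library, per the labels' protocols. The authors deposited estimated counts (expected counts, whole for 86.3% to 86.8% of genes in a library), FPKM and TPM, per the file headers. The submitters' processing notes list STAR, HTSeq and the build GRCm38, with neither role nor version, and which tool made the estimates was not given in the sources used here. A further 6 columns of group means were not used.

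The design had assumed whole counts, so the estimates were rounded first. Genes passing filterByExpr (12564 of 16403; 20 were 0 throughout) were scaled by TMM and tested by edgeR 4.0.16 (R 4.3.3), quasi-likelihood with robust estimation, group as the only term, and Benjamini-Hochberg adjustment over all tested genes. The script was tested on simulated data. Fold changes are LIP over NL. The length offset was a lowess trend (span 0.3) per library on effective length; the GC offset used GENCODE M21 transcripts, known for 98.5% of tested genes. Alternatives were DESeq2 1.42.0, limma 3.58.1 on voom values, on log2(TPM + 1) and on log2(FPKM + 1), other scalings and filters, a replicate block and leaving out each library.

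Replicates of a group differed by more than sampling noise (chi-square per gene 1.87 to 2.78). Nothing says that mice of different pools were handled separately, so p-values measure the spread between these pools. The labels do not say that the shared replicate numbers pair pools, so no pairing was used. Same-numbered libraries did not deviate together, but 3 libraries per group cannot settle whether pools were paired. Members, gene lists, naming rule and motifs were chosen with earlier results of these data known. The naming rule took a fixed panel (nuclear core subunits, of which 1 is not reported here, Ndufab1, Ndufa4, Ndufa4l2 and each Ndufaf) and, in each module, the 2 lowest and the 1 highest fold change; up to 4 genes with the smallest p were taken from other lists. Ndufs4, Ndufv3, Ndufa5, Ndufa9, Ndufa11, Ndufa12, Ndufb4, Ndufb11 and others outside it were named after their values were seen, to complete counts, as were Ecsit, Acad9, Chchd4, Nrf1, Gabpa, Sdha and Sdhaf1. All 49 members matched RefSeq by gene identifier, the source of positions and promoter sequences.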

Additional observations from a re-analysis of the deposited data

How the results depend on the processing

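No alternative called a member higher. The length offset, the length and GC offset, the replicate block with length offset and limma on log2(TPM + 1) gave 13, 15, 14 and 14 members lower in place of 33, and 11, 13, 11 and 12 structural subunits in place of 30. Leaving out single libraries gave 27 (without LIP replicate 2) to 32 members. Assembly factors lower were 1 in place of 2 under DESeq2, RLE factors, total counts alone, no filter on low counts, CPM of at least 1 in 3 libraries, non-robust estimation, replicate block, all offsets, TPM and an adjusted p below 0.01, and 1 to 2 without single libraries, 2 only without LIP replicate 1. The structural median of -0.23 became -0.185 with total counts alone, -0.0686 with the length offset, -0.0871 with the length and GC offset, -0.0688 with block and length offset, -0.0975 on TPM and -0.178 on FPKM. In the same order the assembly factor median of -0.12 became -0.0795, -0.0419, -0.0486, -0.0415, -0.00174 and -0.0771, and without single libraries it ranged from -0.152 (without LIP replicate 3) to -0.0975 (without NL replicate 1). Their difference of -0.11 became -0.0267, -0.0385 and -0.0273 with the 3 offsets, and -0.136 (without NL replicate 1) to -0.0753 (without LIP replicate 3). The cause of these shifts was not tested, beyond the offsets' construction, which removes the length trend.

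Signs turned with the length offset, the length and GC offset, and the replicate block with length offset for Ndufaf2 (0.100, 0.0927 and 0.0994), Ndufaf8 (0.0512, 0.00217 and 0.0525) and Ndufa8 (0.075, 0.0313 and 0.0748). With the first and the last of these, Ndufs3 (0.0289 and 0.0288) and Ndufb9 (0.0265 and 0.0264) turned. Of the other members, Ndufv3 (0.108), Ndufb7 (0.044), Ndufs5 (0.042), Ndufa5 (0.028) and Ndufb2 (0.018) stood above 0 with the length offset, 10 of 46 in all. On TPM, Ndufv1 (0.0287), Ndufs3 (0.0405), Ndufs1 (0.094), Ndufaf1 (0.0369), Ndufaf2 (0.0545), Ndufaf3 (0.0185), Ndufaf7 (0.0133), Ndufa8 (0.0473), Ndufa9 (0.0528) and Ndufv3 (0.00636) turned. Ndufs1 turned also with total counts alone (0.0117) and on FPKM (0.0132). None of these values above 0 was called. Over all genes TMM gave 1984 lower and 1776 higher calls (47.2% of calls higher), DESeq2 1317 and 1167, total counts alone 1301 and 2756 (67.9% higher, median of all genes 0.044), FPKM 1116 and 2116 (65.5%) and TPM 542 and 4657 (89.6%, median 0.11). Relative to that TPM median the members' median was -0.20.

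The replicate block used a number the labels share without saying that it pairs pools. It gave 32 members lower, and 1979 lower and 1750 higher calls over all genes. Of the 33 members called without the block it kept 31. Ndufv2 (adjusted p 0.0636 by edgeR) and Ndufaf5 (adjusted p 0.0533) lost their calls, and another member gained one. Deviations of same-numbered libraries correlated at 0.0295, -0.0163 and -0.113, and not every library correlated best with its own number, since NL-2 and LIP-3 reached 0.132. Assembly factors had 175 to 807 counts in a library.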
